A study of Mus musculus with 8 samples.

Results

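The 55 genes described here are cell cycle and proliferation genes. They were taken by symbol from a list, and all 55 were found in a table of 24421 mouse genes. By role they are 8 G1 cyclins and kinases, 12 genes of replication licensing and nucleotide supply, 13 mitotic cyclins, kinases, checkpoint and anaphase genes, 14 genes of spindle, centromere, chromosome and cytokinesis proteins, 3 transcription factors and 5 inhibitors. Of the 55, 54 had a mean of at least 1 normalized read in at least 1 group and were tested. The exception was Cdkn2a, the gene of the inhibitors p16 and p19Arf, which had 0 reads in all 8 libraries, a count that allows up to 3 reads in a library.

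The cells came from the back skin of 4 C57BL/6J mice that all carried the reporter ROSA<mTmG> and Tyr:Cre<ERT2>. The reporter switches a cell, once recombined, between membrane-bound red (tdTomato) and green (EGFP) fluorescence. Recombination needs tamoxifen and a Cre under the control of the tyrosinase gene, a gene of melanocytes and their precursors, so a melanocyte in which Cre did not act stays red. All mice received tamoxifen for 10 days from postnatal day 21 and were depilated on day 50. UVB at 150 mJ/cm2 for 3 days was given to mice 3 and 4, mice 1 and 2 were mock treated under normal light, and skin was taken on day 54. Each mouse gave a green fraction of melanocytes (EGFP+) and a red fraction of the remaining skin cells (tdTomato+), separated by sorting. The 4 groups of 2 libraries were thus UV EGFP+, no UV EGFP+, UV tdTomato+ and no UV tdTomato+. In each pair of values below the first belongs to replicate 1 (mouse 3 with UV, mouse 1 without) and the second to replicate 2 (mouse 4 with UV, mouse 2 without).

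A cell passes G1 when D cyclins with Cdk4 and Cdk6, and then E cyclins with Cdk2, phosphorylate the retinoblastoma protein and release E2F factors, which switch on genes of DNA replication. Licensing factors load the Mcm helicase on replication origins before S phase, and in G2 and mitosis cyclins A and B with Cdk1, together with Plk1 and the Aurora kinases, build the spindle and separate the chromosomes. Inhibitors such as p27, p15 and p18 hold the kinases back. Basal keratinocytes and hair matrix cells divide often in skin, whereas melanocytes of adult skin are known for slow division.

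Many mitosis genes are repressed in quiescent cells through a promoter element called the cell cycle homology region (CHR), often paired with CCAAT boxes, while many replication genes carry E2F sites. Promoter windows of 300 bases (250 before to 50 after the transcription start) were taken from RefSeq in the GRCm38.p6 build for 44 of the 55 genes, 49 windows in all. CHR letters (TTTGAA or TTCGAA, either strand) stood in 19 of 24 windows of mitosis genes (79.2%) and in 2 of 11 windows of replication genes (18.2%), against 19.2% of all 32851 windows. CCAAT, on either strand, stood in 19 of 24 mitosis windows and in 8 of 11 replication windows (72.7%), against 37.4% of all windows. E2F letters (TTTCCCGC, TTTGGCGC, TTTCGCGC or TTTGCCGC, either strand) stood in 6 of 11 replication windows (54.5%) and in 1 of 24 mitosis windows (4.17%), against 2.26% of all windows. A match is a description of letters and not a binding site. Shown here are 4 mitosis genes with lower levels in EGFP+ cells, with CHR and CCAAT letters of either strand in capitals: Cdc20 (chr4:118437294-118437593, minus strand), Ccnb2 (chr9:70421505-70421804, minus), Mki67 (chr7:135716330-135716629, minus) and Cenpa (chr5:30666636-30666935, plus).
Cdc20: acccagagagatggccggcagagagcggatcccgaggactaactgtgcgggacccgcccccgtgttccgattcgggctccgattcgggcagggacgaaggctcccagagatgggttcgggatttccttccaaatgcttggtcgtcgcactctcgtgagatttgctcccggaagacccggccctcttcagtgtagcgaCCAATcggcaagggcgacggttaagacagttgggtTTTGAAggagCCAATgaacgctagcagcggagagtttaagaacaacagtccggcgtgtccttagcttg
Ccnb2: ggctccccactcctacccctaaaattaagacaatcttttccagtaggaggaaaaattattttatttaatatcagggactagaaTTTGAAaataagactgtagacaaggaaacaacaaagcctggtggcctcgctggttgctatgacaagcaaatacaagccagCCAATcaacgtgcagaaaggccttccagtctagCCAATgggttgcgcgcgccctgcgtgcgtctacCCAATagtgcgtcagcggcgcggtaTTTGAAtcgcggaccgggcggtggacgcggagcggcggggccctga
Mki67: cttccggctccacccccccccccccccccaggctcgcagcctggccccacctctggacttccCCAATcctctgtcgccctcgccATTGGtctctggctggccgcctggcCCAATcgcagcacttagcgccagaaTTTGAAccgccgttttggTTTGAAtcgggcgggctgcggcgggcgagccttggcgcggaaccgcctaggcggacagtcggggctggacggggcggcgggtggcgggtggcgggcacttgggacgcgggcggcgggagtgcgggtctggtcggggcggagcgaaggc
Cenpa: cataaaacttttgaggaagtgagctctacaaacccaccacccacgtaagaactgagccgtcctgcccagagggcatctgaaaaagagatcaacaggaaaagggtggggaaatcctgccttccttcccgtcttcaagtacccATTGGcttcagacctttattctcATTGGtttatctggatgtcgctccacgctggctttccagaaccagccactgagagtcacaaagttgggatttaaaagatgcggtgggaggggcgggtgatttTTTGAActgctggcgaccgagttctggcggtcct
In each of these windows CHR and CCAAT letters stood together, and no E2F letters were found in these 4 windows. The 4 were picked as examples. Other mitosis genes that were lower in the test below differed in this. The windows of Ube2c, Kif23, Kif2c and Cenpf held CHR letters, and those of Mad2l1, Birc5, Ccnb1 and Cenpe did not. The replication genes Mcm5 (chr8:75109259-75109558, plus strand) and Mcm6 (chr1:128359656-128359955, minus) and the G1 kinase gene Cdk2 (chr10:128705002-128705301, minus) are shown with E2F and CCAAT letters of either strand in capitals, where overlapping matches run together.
Mcm5: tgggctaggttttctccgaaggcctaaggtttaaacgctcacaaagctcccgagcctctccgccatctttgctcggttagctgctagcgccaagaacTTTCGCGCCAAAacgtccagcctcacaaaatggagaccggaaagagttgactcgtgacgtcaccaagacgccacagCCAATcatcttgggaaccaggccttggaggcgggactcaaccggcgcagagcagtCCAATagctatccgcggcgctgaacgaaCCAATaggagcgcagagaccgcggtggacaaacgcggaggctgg
Mcm6: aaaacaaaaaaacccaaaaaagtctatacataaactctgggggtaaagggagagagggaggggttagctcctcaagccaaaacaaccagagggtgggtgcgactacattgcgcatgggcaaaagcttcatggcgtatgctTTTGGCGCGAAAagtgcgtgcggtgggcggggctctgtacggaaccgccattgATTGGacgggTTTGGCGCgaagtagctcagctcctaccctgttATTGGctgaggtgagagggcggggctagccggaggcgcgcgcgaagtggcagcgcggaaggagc
Cdk2: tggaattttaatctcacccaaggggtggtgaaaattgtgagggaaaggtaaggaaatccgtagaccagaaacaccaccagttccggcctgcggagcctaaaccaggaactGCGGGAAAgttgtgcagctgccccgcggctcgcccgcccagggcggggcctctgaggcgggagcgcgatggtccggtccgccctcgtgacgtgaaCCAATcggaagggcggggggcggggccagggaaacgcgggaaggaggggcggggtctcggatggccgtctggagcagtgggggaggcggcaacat
No CHR letters were found in these last 3 windows. The Cdk2 window lies within the annotated span of Pmel, a melanosome gene on the other strand of chromosome 10, a position that matters for the Cdk2 values below.

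The libraries held 11186363 to 16711981 reads. UV EGFP+ replicate 2 stood apart with 11186 detected genes, against 14503 to 17076 in the other 7 libraries, so for the comparisons that use it the counts of calls, the medians and several single-gene values are also given without it. Mouse 1 differed from the other mice in sex-linked genes, with 477 and 1103 Xist reads in its libraries against at most 4 elsewhere. Its libraries had at most 9 reads of 4 Y-linked genes, against at least 2253 in those of the other mice. The difference thus lies between the 2 no UV mice. The labels were checked with marker genes. The 8 melanocyte markers summed to 523784 to 615877 normalized reads in EGFP+ libraries and to 2616 to 44454 in tdTomato+ libraries. The 7 basal keratinocyte markers summed to 805 to 1065 in EGFP+ libraries and to 208822 to 276413 in tdTomato+ libraries. The 5 endothelial markers summed to 0 to 2.52 in EGFP+ and 31.4 to 727 in tdTomato+ libraries. The 7 immune markers summed to 47.8 and 5.39 in UV EGFP+ and 323 and 149 in no UV EGFP+ libraries. In tdTomato+ libraries they summed to 1350 to 10501. The 8 hair follicle markers summed to 128 to 396 in EGFP+ and 3458 to 4905 in tdTomato+ libraries. Of these 8, 1 had a positive log2 fold change over all mice (1.27, not called).

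**Figure D1:**
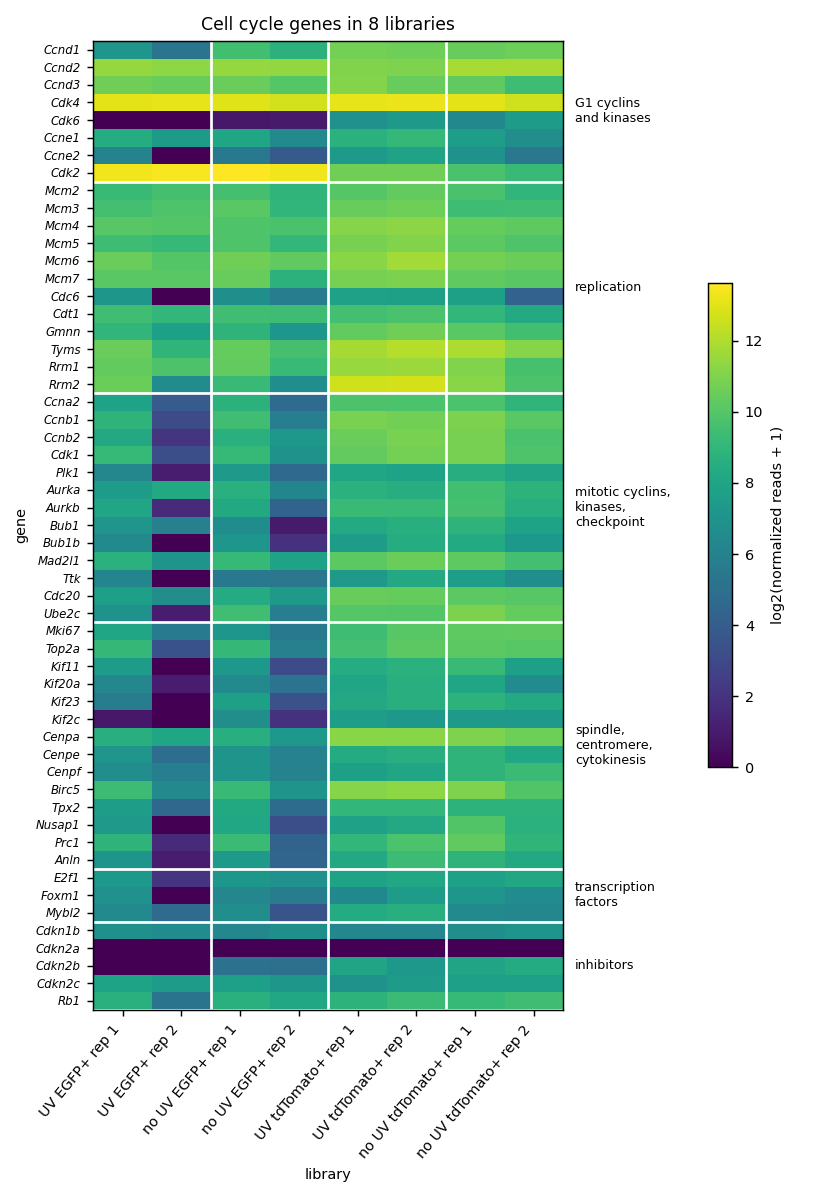
Level of each of the 55 genes in each of the 8 libraries, as log2(normalized reads + 1), with genes in rows grouped by role and libraries in columns. Most of the 27 mitosis genes have their lowest values in UV EGFP+ replicate 2 and no UV EGFP+ replicate 2, and Cdkn2a is at 0 in all 8 columns; values are not per length, so rows are compared across columns and not with each other.

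The comparison of EGFP+ with tdTomato+ cells over all 4 mice asks how the cell cycle genes of melanocytes differ from those of the remaining skin cells. Of the 54 genes tested, 23 were lower and 1, Cdk2, was higher in EGFP+ cells (limma, adjusted p under 0.05), beside 19.2% lower and 9.66% higher among all 18070 genes tested. The lower genes included the proliferation marker Mki67, the cyclin genes Ccnd1, Ccna2, Ccnb1 and Ccnb2, the anaphase activator Cdc20, the centromere genes Cenpa, Cenpe and Cenpf, and the nucleotide supply genes Tyms and Rrm2. All 27 mitosis genes had a negative log2 fold change and 14 of them passed. At an unadjusted p under 0.05 there were 40 of the 54 genes, against 39.5% of all genes. In 33 of the 54 each EGFP+ library lay below each tdTomato+ library, an order that 18.0% of all genes showed, and in 1 above, against 9.8% of all genes. The median log2 fold change was -2.68 over the 54 genes and -0.33 over all genes tested. By role the medians were -0.24 for G1 cyclins and kinases, -0.92 for replication genes, -3.27 for mitotic cyclins, kinases and checkpoint genes, -3.26 for spindle, centromere and cytokinesis genes, -2.14 for the transcription factors and -0.74 for the 4 tested inhibitors. With UV EGFP+ replicate 2 left out, the medians were -1.67 over the 54 genes, -2.14 over the 27 mitosis genes, all still negative, -0.75 over the replication genes and -0.24 over all genes. In RNA from sorted bulk cells, fewer cells that express a gene and less of its RNA per cell cannot be told apart.

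All fold changes over the mice compare 4 EGFP+ with 4 tdTomato+ libraries, on the scale log2(normalized reads + 1) with the moderated standard error (SE), and the adjusted p is that of limma over all 18070 genes. The number of libraries, 2 in a group, limits their precision. With each mouse as a block, which pairs the EGFP+ and tdTomato+ cells of the same animal, 36 genes were called, 35 of them lower, while the share of all genes called was 28.9%, with 19.4% lower. These included all 24 above, and the 12 added were Anln, Aurka, Aurkb, Bub1, Bub1b, Cdk1, Kif11, Kif20a, Nusap1, Plk1, Rrm1 and Top2a. Without UV EGFP+ replicate 2, 20 genes were called, 19 of them lower (17.4% of all genes lower). In that fit Ccna2, Ccnb1, Kif23, Mcm6, Rrm2 and Tpx2 lost their calls, E2f1 and Ttk gained one, and the log2 fold changes of the mitotic cyclin genes Ccna2, Ccnb1 and Ccnb2 were -2.22, -2.43 and -2.39. Leaving out UV EGFP+ replicate 1 gave 41 calls, beside 36.6% of all genes. Leaving out no UV EGFP+ replicates 1 and 2 gave 21 and 13, beside 21.2% and 19.3% of all genes. For UV tdTomato+ replicates 1 and 2 it was 11 and 9, beside 19.3% and 20.7% of all genes. For no UV tdTomato+ replicates 1 and 2 it was 8 and 12, beside 28.5% and 26% of all genes. In each of the 8 fits 8 genes were called: Ccnd1, Cdc20, Cdk2, Cdk6, Cdkn2b, Cenpa, Cenpf and Mcm4.

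**Figure D2:**
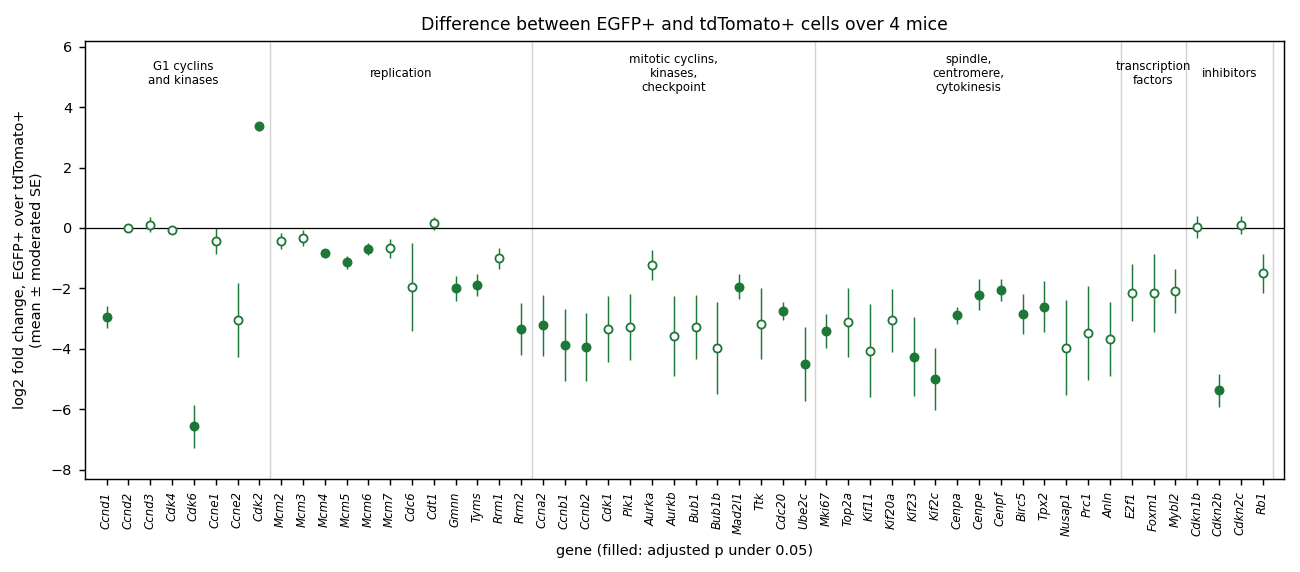
Log2 fold change of EGFP+ over tdTomato+ cells for the 54 tested genes, as the limma estimate over 4 mice with its moderated SE, and filled points for adjusted p under 0.05. Cdk2 is the sole filled point above 0, at 3.37, and all 27 mitosis genes lie below 0.

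Among the G1 genes, 2 were lower, 1 was higher and 5 did not pass. Ccnd1 encodes cyclin D1, the growth factor responsive partner of Cdk4 and Cdk6 (chr7:144929931-144939925, minus strand). It had 137 and 38.8 normalized reads in UV EGFP+ and 734 and 430 in no UV EGFP+ libraries, against 1744 and 1586 in UV tdTomato+ and 1402 and 1586 in no UV tdTomato+ libraries. Each EGFP+ library lay below each tdTomato+ library, and the lowest values were those of the UV EGFP+ libraries. The log2 fold change over all mice was -2.95 ± 0.38 (SE; adjusted p = 0.00064). Part of Ccnd1 (1100 exon bases) overlaps exons of LTO1 on the other strand, and the libraries do not keep the strand.

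Cdk6, a kinase partner of the D cyclins (chr5:3341485-3531008, plus strand), was almost undetected in EGFP+ cells. Its values were 0 and 0 in UV EGFP+ and 0.832 and 0.951 in no UV EGFP+ libraries, against 116 and 164 in UV tdTomato+ and 80.2 and 181 in no UV tdTomato+ libraries. This is 2 reads in EGFP+ and 513 reads in tdTomato+ cells, a depth-corrected ratio of tdTomato+ over EGFP+ of 288 (95% counting interval 79.4 to 2386). The fitted log2 fold change was -6.56 ± 0.72 (SE; adjusted p = 0.000273), a value that depends on the added count of 1.

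The other kinase partner of the D cyclins, Cdk4, had 8606 and 8757 normalized reads in UV EGFP+ and 7835 and 6556 in no UV EGFP+ libraries, against 8976 and 9512 in UV tdTomato+ and 8642 and 6324 in no UV tdTomato+ libraries. Those ranges overlap, with a log2 fold change of -0.07 ± 0.13 (SE; adjusted p = 0.725). Ccnd2 and Ccnd3, the genes of cyclins D2 and D3, stood at -0.0049 ± 0.11 (adjusted p = 0.979) and 0.10 ± 0.25 (adjusted p = 0.786), and the signs of these 3 values turned under other settings. Ccne1 and Ccne2, the E cyclin genes, stood at -0.42 ± 0.43 (adjusted p = 0.508) and -3.04 ± 1.23 (adjusted p = 0.101). Ccne2 had 66.3 and 0 normalized reads in UV EGFP+ and 44.9 and 13.3 in no UV EGFP+ libraries, against 163 and 234 in UV tdTomato+ and 120 and 42.8 in no UV tdTomato+ libraries.

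Cdk2 is the kinase partner of cyclins E and A (chr10:128697939-128705031, minus strand). It had 10199 and 11593 normalized reads in UV EGFP+ and 12616 and 10367 in no UV EGFP+ libraries, against 1633 and 1626 in UV tdTomato+ and 842 and 602 in no UV tdTomato+ libraries. Each EGFP+ library exceeded each tdTomato+ library, and the log2 fold change was 3.37 ± 0.15 (SE; adjusted p = 2.01e-06). The annotated span of Cdk2 overlaps that of Pmel (chr10:128704195-128720238, plus strand) by 837 bases, 34 of them exonic in both. Without strand, reads in the shared bases cannot be told apart. Pmel had 83757 to 117312 normalized reads in the 4 EGFP+ libraries and 488 to 9129 in the tdTomato+ libraries. Cdk2 was 9.87% to 13.8% of Pmel in EGFP+ libraries, and 40.4% and 17.8% in UV tdTomato+ and 76.3% and 123% in no UV tdTomato+ libraries. The part of Pmel reads in the Cdk2 value was not tested. In all, 14 of the 55 genes share exon bases with another protein-coding gene, among them Ccna2, Cdk4, Cdc20, Ube2c, Kif20a, Nusap1, Prc1 and Rb1.

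Of the 12 replication genes, 6 were lower in EGFP+ cells and the rest did not pass. Mcm4, a subunit of the replicative helicase (chr16:15623897-15637400, minus strand), had 1094 and 1026 normalized reads in UV EGFP+ and 937 and 844 in no UV EGFP+ libraries, against 2277 and 2463 in UV tdTomato+ and 1362 and 1196 in no UV tdTomato+ libraries. The groups did not overlap, with a log2 fold change of -0.84 ± 0.14 (SE; adjusted p = 0.00247). The helicase subunit genes Mcm5 (-1.141 ± 0.22, adjusted p = 0.0051) and Mcm6 (-0.70 ± 0.19, adjusted p = 0.0269) were also lower, whereas Mcm7 stood at -0.68 ± 0.33 (adjusted p = 0.164). The Mcm5 gene had 662 and 556 normalized reads in UV EGFP+ and 949 and 519 in no UV EGFP+ libraries, against 1838 and 2146 in UV tdTomato+ and 1150 and 949 in no UV tdTomato+ libraries. Its highest EGFP+ value and its lowest tdTomato+ value were equal at this rounding and came from mice 1 and 2.

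Rrm2, the regulated subunit of ribonucleotide reductase, varied widely. It had 1521 and 93.8 normalized reads in UV EGFP+ and 611 and 103 in no UV EGFP+ libraries, against 6433 and 6937 in UV tdTomato+ and 2363 and 905 in no UV tdTomato+ libraries. The EGFP+ library of mouse 3 exceeded the tdTomato+ library of mouse 2, and the log2 fold change was -3.34 ± 0.87 (SE; adjusted p = 0.0204). Tyms, thymidylate synthase, stood at -1.88 ± 0.36 (adjusted p = 0.00508). Gmnn, geminin, which blocks the licensing factor Cdt1, stood at -1.99 ± 0.42 (adjusted p = 0.00792). The Tyms gene had 1440 and 474 normalized reads in UV EGFP+ and 1357 and 792 in no UV EGFP+ libraries, against 3534 and 4421 in UV tdTomato+ and 3910 and 2235 in no UV tdTomato+ libraries. Gmnn had 506 and 210 normalized reads in UV EGFP+ and 458 and 140 in no UV EGFP+ libraries, against 1302 and 1652 in UV tdTomato+ and 1111 and 726 in no UV tdTomato+ libraries. In both genes each EGFP+ library lay below each tdTomato+ library. Cdt1 itself had a positive log2 fold change, 0.16 ± 0.22 (adjusted p = 0.618), with 697 and 513 normalized reads in UV EGFP+ and 706 and 665 in no UV EGFP+ libraries, against 758 and 853 in UV tdTomato+ and 518 and 321 in no UV tdTomato+ libraries. Apart from Mcm4, the replication calls were lost in 2 (Mcm5), 4 (Gmnn and Tyms), 6 (Mcm6) and 7 (Rrm2) of the 8 fits that each left out 1 library. Their highest adjusted p was reached without no UV tdTomato+ replicate 1 and ran from 0.056 for Mcm5 to 0.185 for Rrm2.

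The mitotic cyclins, kinases and checkpoint genes were all negative, and 6 of 13 passed. Cdc20, which activates the anaphase promoting complex (chr4:118432901-118437352, minus strand), is the gene of the first promoter above. It had 202 and 105 normalized reads in UV EGFP+ and 327 and 158 in no UV EGFP+ libraries, against 1401 and 1350 in UV tdTomato+ and 1149 and 1075 in no UV tdTomato+ libraries. Each EGFP+ library was far below each tdTomato+ library, with a log2 fold change of -2.76 ± 0.30 (SE; adjusted p = 0.000275). Mad2l1, a spindle checkpoint protein that holds Cdc20 inactive, stood at -1.95 ± 0.41 (adjusted p = 0.00794).

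Ccnb2, a B cyclin gene whose product drives Cdk1, had 300 and 3.23 normalized reads in UV EGFP+ and 402 and 153 in no UV EGFP+ libraries, against 1460 and 1905 in UV tdTomato+ and 1809 and 835 in no UV tdTomato+ libraries. The groups did not overlap, but the replicates of EGFP+ cells lay far apart, and the log2 fold change was -3.92 ± 1.12 (SE; adjusted p = 0.0305). Ccnb1 (-3.87 ± 1.20, adjusted p = 0.041), Ccna2 (-3.22 ± 1.01, adjusted p = 0.0441) and Ube2c, a ubiquitin conjugating enzyme of the anaphase promoting complex (-4.51 ± 1.22, adjusted p = 0.0245), were also lower. For Ube2c there were 126 and 1.08 normalized reads in UV EGFP+ and 694 and 55.1 in no UV EGFP+ libraries, against 1034 and 1008 in UV tdTomato+ and 1946 and 1355 in no UV tdTomato+ libraries. The 4 values of EGFP+ cells were below the 4 of tdTomato+ cells and covered a wide range, with the lowest in mouse 4. The kinase gene of these cyclins, Cdk1, had 548 and 8.62 normalized reads in UV EGFP+ and 559 and 121 in no UV EGFP+ libraries, against 1312 and 1767 in UV tdTomato+ and 1786 and 926 in no UV tdTomato+ libraries. Its log2 fold change was -3.35 ± 1.11 with adjusted p = 0.0529, and that of Plk1, a mitotic kinase, was -3.27 ± 1.09 with adjusted p = 0.0539. With mouse as a block both were called (adjusted p = 0.026 and 0.0263). Aurka, the spindle pole Aurora kinase, had the smallest difference of the mitosis genes, -1.22 ± 0.49 (adjusted p = 0.101). Its UV EGFP+ values of 179 and 309 were the sole pair of a mitosis gene in UV EGFP+ cells with the higher value in replicate 2.

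Of the 14 spindle, centromere and cytokinesis genes 8 passed, all lower. Cenpa, the histone variant that marks centromeres (chr5:30666777-30674830, plus strand), had 368 and 269 normalized reads in UV EGFP+ and 379 and 154 in no UV EGFP+ libraries, against 2395 and 2349 in UV tdTomato+ and 2026 and 1583 in no UV tdTomato+ libraries. No EGFP+ library reached any tdTomato+ library, and the log2 fold change was -2.90 ± 0.29 (SE; adjusted p = 0.00017). Cenpf, a kinetochore protein of G2 and mitosis (chr1:189640606-189688086, minus strand), had 102 and 55.0 normalized reads in UV EGFP+ and 132 and 68.5 in no UV EGFP+ libraries, against 214 and 257 in UV tdTomato+ and 459 and 619 in no UV tdTomato+ libraries. Its log2 fold change was -2.06 ± 0.36 (SE; adjusted p = 0.0032).

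Mki67, the gene of the Ki-67 antigen that coats mitotic chromosomes, had 257 and 48.5 normalized reads in UV EGFP+ and 143 and 44.7 in no UV EGFP+ libraries, against 659 and 1081 in UV tdTomato+ and 1216 and 1240 in no UV tdTomato+ libraries. The groups did not overlap, and the log2 fold change was -3.41 ± 0.56 (SE; adjusted p = 0.00222). Birc5, the survivin gene of the chromosomal passenger complex (-2.86 ± 0.66, adjusted p = 0.0124), the kinesin genes Kif2c (-4.99 ± 1.02, adjusted p = 0.00677) and Kif23 (-4.26 ± 1.31, adjusted p = 0.0401), the kinetochore motor gene Cenpe (-2.22 ± 0.51, adjusted p = 0.0124) and the spindle factor gene Tpx2 (-2.60 ± 0.83, adjusted p = 0.0472) were lower as well. Survivin gene Birc5 had 635 and 85.1 normalized reads in UV EGFP+ and 569 and 131 in no UV EGFP+ libraries, against 2262 and 2549 in UV tdTomato+ and 2051 and 965 in no UV tdTomato+ libraries. Kif2c, a microtubule depolymerase gene, had 0.839 and 0 normalized reads in UV EGFP+ and 106 and 2.85 in no UV EGFP+ libraries, against 190 and 154 in UV tdTomato+ and 164 and 158 in no UV tdTomato+ libraries. In Kif2c the EGFP+ values near 0 were those of mice 3, 4 and 2, whereas mouse 1 had the highest EGFP+ value. Top2a, the topoisomerase that untangles sister chromosomes, stood at -3.12 ± 1.13995 (adjusted p = 0.0746), with 539 and 9.70 normalized reads in UV EGFP+ and 537 and 59.9 in no UV EGFP+ libraries, against 749 and 1151 in UV tdTomato+ and 1152 and 1078 in no UV tdTomato+ libraries. In the fits that each left out 1 library, Mki67 lost its call once, without no UV tdTomato+ replicate 1 (adjusted p = 0.0548). The other called mitosis genes apart from Cdc20, Cenpa and Cenpf lost theirs in 4 to 7 of the 8 fits, with the highest adjusted p, also without no UV tdTomato+ replicate 1, between 0.0769 for Kif2c and 0.245 for Ccna2.

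**Figure D3:**
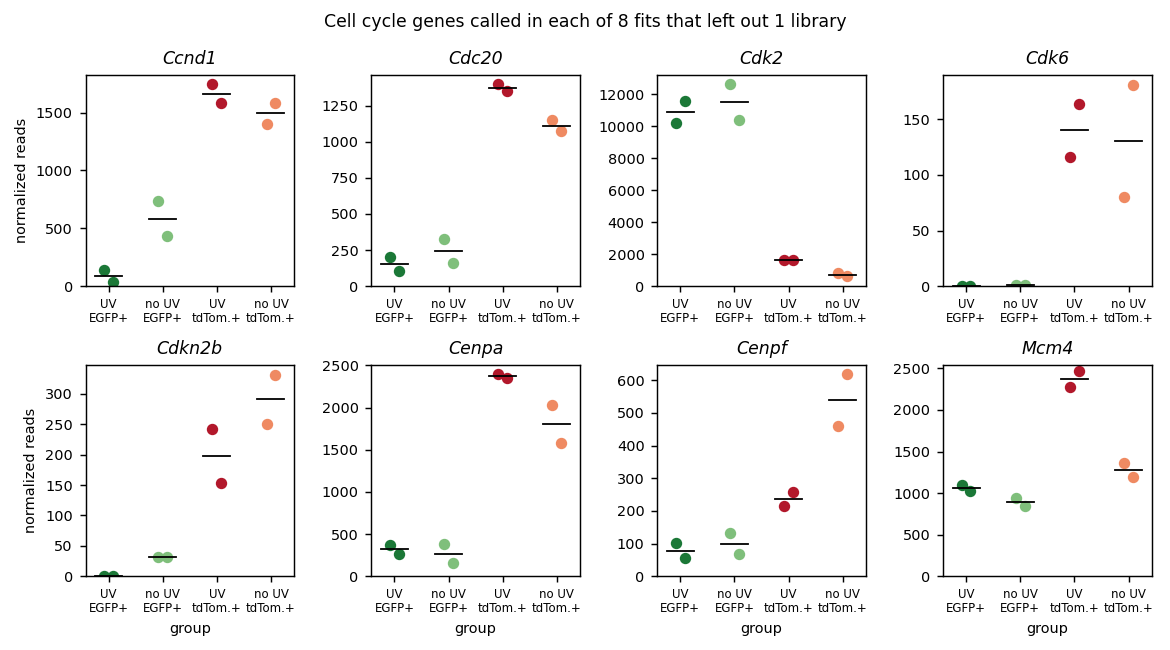
Normalized reads of the 8 genes that were called in each of 8 fits that left out 1 library, with a point per library, a bar at the mean of each group of 2 and a linear axis from 0. In 7 panels the 4 EGFP+ points lie below the 4 tdTomato+ points, and in the Cdk2 panel they lie above them.

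The 3 transcription factors did not pass. E2f1, which activates replication genes, stood at -2.14 ± 0.95 (adjusted p = 0.133), Foxm1, which activates mitosis genes, at -2.16 ± 1.29 (adjusted p = 0.257) and Mybl2, a partner of the complex that binds the CHR, at -2.09 ± 0.73 (adjusted p = 0.0651). E2f1 had 151 and 3.23 normalized reads in UV EGFP+ and 148 and 119 in no UV EGFP+ libraries, against 236 and 279 in UV tdTomato+ and 225 and 285 in no UV tdTomato+ libraries. The EGFP+ values of E2f1 all lay below the tdTomato+ values, and the low one was that of UV EGFP+ replicate 2.

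Among the inhibitors 1 was lower. Cdkn2b, the gene of p15, which binds Cdk4 and Cdk6 and is induced by TGF-beta (chr4:89306299-89311039, minus strand), had 0 and 0 normalized reads in UV EGFP+ and 32.4 and 31.4 in no UV EGFP+ libraries, against 243 and 154 in UV tdTomato+ and 250 and 331 in no UV tdTomato+ libraries. Each EGFP+ library was below each tdTomato+ library, with a log2 fold change of -5.37 ± 0.55 (SE; adjusted p = 0.000198). Cdkn1b, the gene of p27, had 113 and 93.8 in UV EGFP+ and 78.2 and 108 in no UV EGFP+ libraries, against 77.0 and 77.9 in UV tdTomato+ and 106 and 131 in no UV tdTomato+ libraries, a log2 fold change of 0.03 ± 0.37 (adjusted p = 0.964). Cdkn2c, the gene of p18, stood at 0.11 ± 0.30 (adjusted p = 0.812), and Rb1, the retinoblastoma gene, at -1.498 ± 0.64 (adjusted p = 0.118). Rb1 had 404 and 36.6 normalized reads in UV EGFP+ and 393 and 289 in no UV EGFP+ libraries, against 448 and 623 in UV tdTomato+ and 558 and 707 in no UV tdTomato+ libraries. Its EGFP+ values were all below its tdTomato+ values, and the lowest was that of mouse 4. The signs of the Cdkn1b and Cdkn2c values turned when some libraries were left out.

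Other genes of the same pathways were taken from lists outside the 55, also chosen with earlier results of these data known. Their counts stand beside 19.2% lower and 9.66% higher of all genes tested. Of 29 other replication genes 14 were lower and 0 higher (median log2 fold change -1.03), of 36 other mitosis genes 16 were lower and 0 higher (median -2.67), and of 20 other genes of G1 control 6 were lower and 1 higher (median -0.65). The higher gene was Rbl2, the gene of p130, a retinoblastoma relative found in quiescent cells. It had 530 and 592 normalized reads in UV EGFP+ and 465 and 327 in no UV EGFP+ libraries, against 186 and 185 in UV tdTomato+ and 122 and 230 in no UV tdTomato+ libraries, with a log2 fold change of 1.4001 ± 0.28 (SE; adjusted p = 0.00643). The smallest p among the lower genes were those of Smc4, a condensin subunit (-1.54 ± 0.18, adjusted p = 0.000404), Spc24, a kinetochore protein (-3.08 ± 0.43, adjusted p = 0.00105), and Cks1b, a Cdk binding protein (-2.14 ± 0.32, adjusted p = 0.00141). Pcna, the replication clamp, was lower at -0.56 ± 0.16 (adjusted p = 0.0302; lost in 6 of the 8 fits, up to 0.15 without UV tdTomato+ replicate 2). E2f2, another E2F factor, stood at -2.45 ± 1.16 (adjusted p = 0.156) and Cdkn1a, the p21 gene and a p53 target, at -0.36 ± 0.24 (adjusted p = 0.314). In the authors' deposited table, 27 of the 55 genes were lower and 1, Cdk2, was higher in EGFP+ cells at adjusted p under 0.05, beside 22.5% lower and 12.6% higher of all genes with an adjusted p in that table.

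With UV, 17 of the 54 genes were lower and 1 was higher in EGFP+ than in tdTomato+ cells, beside 12.9% lower and 5.03% higher of all genes tested, and 36 had an unadjusted p under 0.05, against 31.1%. The median log2 fold change was -3.09 over the 54 genes, against -0.27 over all genes, and -4.29 over the 27 mitosis genes, 9 of which passed. Without UV EGFP+ replicate 2, which leaves 1 UV EGFP+ library, these medians were -1.40, -0.10 and -1.66. Ccnd1 stood at -4.49 ± 0.54 (SE; adjusted p = 0.00103), Cdc20 at -3.23 ± 0.43 (adjusted p = 0.00166) and Cenpa at -2.91 ± 0.41 (adjusted p = 0.00214). Cdk2 was higher at 2.74 ± 0.21 (adjusted p = 0.000115), with the Pmel values as given above. Cdk6 had 0 reads in the 2 UV EGFP+ libraries and 304 in the 2 UV tdTomato+ libraries, and was at least 99.0-fold lower when a floor of 3 reads over the group is used. Cdkn2b had 0 and 431 reads and was at least 140-fold lower by the same floor. Kif2c, with 1 read in UV EGFP+ and 373 in UV tdTomato+ cells, had a ratio of tdTomato+ over EGFP+ of 364 (95% counting interval 65.0 to 14432).

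Replication genes contributed 5 calls with UV: Mcm4 (-1.16 ± 0.20, adjusted p = 0.00524), Mcm5 (-1.71 ± 0.31, adjusted p = 0.00711), Mcm6 (-1.20 ± 0.27, adjusted p = 0.0193), Tyms (-2.26 ± 0.51, adjusted p = 0.0185) and Gmnn (-2.17 ± 0.59, adjusted p = 0.0382). Of the other pathway genes Rbl2 was the sole one called higher (1.59 ± 0.40, adjusted p = 0.0279), and those called lower with the smallest p were Spc24 (-3.51 ± 0.62, adjusted p = 0.00594), the securin gene Pttg1 (-3.30 ± 0.61, adjusted p = 0.00763) and Cks1b (-2.41 ± 0.45, adjusted p = 0.0082). Of the 29, 36 and 20 other genes of replication, mitosis and G1 control, 7, 9 and 0 were lower and 0, 0 and 1 higher. Of all genes tested 12.9% were lower and 5.03% higher. The number of the 55 genes called with UV was 7 without UV EGFP+ replicate 2 (11.3% of all genes) and 41 without UV EGFP+ replicate 1 (27.5% of all genes). In the fit without UV EGFP+ replicate 2 the mitosis genes Cdc20 and Cenpa stood at -2.76 and -2.68 and were called, and Ccnb2, Mki67, Birc5 and Ube2c stood at -2.47, -1.71, -1.92 and -3.01 and were not. The number of the 55 genes called was 10 when either no UV EGFP+ library was left out, beside 11.9% and 12.6% of all genes. It was 7 and 8 without no UV tdTomato+ replicates 1 and 2, beside 13.1% and 16.2% of all genes. This number and the share of all genes were lower still without either UV tdTomato+ library, which leaves 1 in that group. Cdc20 lost its call in 1 of the 8 fits and Cenpa in 2 (up to adjusted p = 0.0523 and 0.0595, without UV tdTomato+ replicate 1). Mcm5 lost it in 4, Kif2c in 5 and the other called genes in 7, and of the other pathway genes Spc24 in 3, Pttg1 in 4 and Rbl2 and Cks1b in 5. Ccnd1, Cdk2, Cdk6, Cdkn2b and Mcm4 were called in each of the 8 fits, and with mouse as a block 25 genes were called, all 18 among them, beside 17.7% of all genes.

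Without UV, 6 of the 54 genes were lower and 1 was higher in EGFP+ cells, beside 12.5% lower and 6.67% higher of all genes tested, and 18 had an unadjusted p under 0.05, against 31.2%. The lower genes were Cdk6 (-6.01 ± 1.02, adjusted p = 0.00469), Cdc20 (-2.29 ± 0.43, adjusted p = 0.00745), Mki67 (-3.92 ± 0.79, adjusted p = 0.0101), Cenpa (-2.88 ± 0.41, adjusted p = 0.00204), Cenpf (-2.47 ± 0.51, adjusted p = 0.0113) and Cdkn2b (-3.13 ± 0.78, adjusted p = 0.0243). The higher gene was again Cdk2, at 4.00 ± 0.21 (adjusted p = 1.67e-05). Ccnd1 did not pass without UV, at -1.41 ± 0.54 (adjusted p = 0.110). The median was -1.77 over the 54 genes, against -0.27 over all genes, and -2.62 over the mitosis genes. No replication gene of the 12 passed, with a median of -0.53, and 4 of them had an unadjusted p under 0.05. Of the other pathway genes, 1 of 29 for replication, 10 of 36 for mitosis and 2 of 20 for G1 control were lower and 0 were higher. The condensin gene Smc4 (-1.95 ± 0.26, adjusted p = 0.00145), the growth regulator Myc (-1.68 ± 0.36, adjusted p = 0.0137) and Cdk7, the kinase that activates other cyclin dependent kinases (-1.04 ± 0.23, adjusted p = 0.0158), had the smallest p. Leaving out UV EGFP+ replicate 1 gave 14 calls among the 55 genes, beside 25% of all genes. Leaving out a no UV library leaves 1 in that group. The calls among the 55 genes and among all genes then rose or fell, depending on the library. Of the 8 fits that each left out 1 library, Cenpa lost its call in 1, Cdc20, Cenpf, Cdkn2b and Cdk7 in 3, and Mki67 and Myc in 6. Cdk2 and Cdk6 were called in each of these fits. Without UV EGFP+ replicate 2, 11 genes were called, beside 23.2% of all genes. With mouse as a block 10 genes were called, beside 18.2% of all genes, among them 6 of the 7, with Cdkn2b lost (adjusted p = 0.0567) and Birc5, Bub1, Gmnn and Tyms added.

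The 4 mice differed in how low the mitosis genes were in EGFP+ cells. The median level of the 27 mitosis genes in EGFP+ cells, as a percentage of the tdTomato+ cells of the same mouse, was 39.0% in mouse 3 and 0.458% in mouse 4 with UV, and 35.7% in mouse 1 and 6.13% in mouse 2 without UV. For the 12 replication genes it was 50.8% and 30.0% with UV, and 75.6% and 71.4% without UV. For the 8 G1 genes it was 78.9% and 62.0% with UV, and 84.3% and 80.8% without UV. Over all genes tested the medians were 81.4% and 65.2% with UV, and 82.4% and 71.1% without UV. No mitosis gene exceeded 88.7% in any mouse. Basal keratinocyte markers, which EGFP+ cells should lack, stood at medians of 0.241% and 0.738% with UV, and 0.201% and 0.194% without UV.

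**Figure D4:**
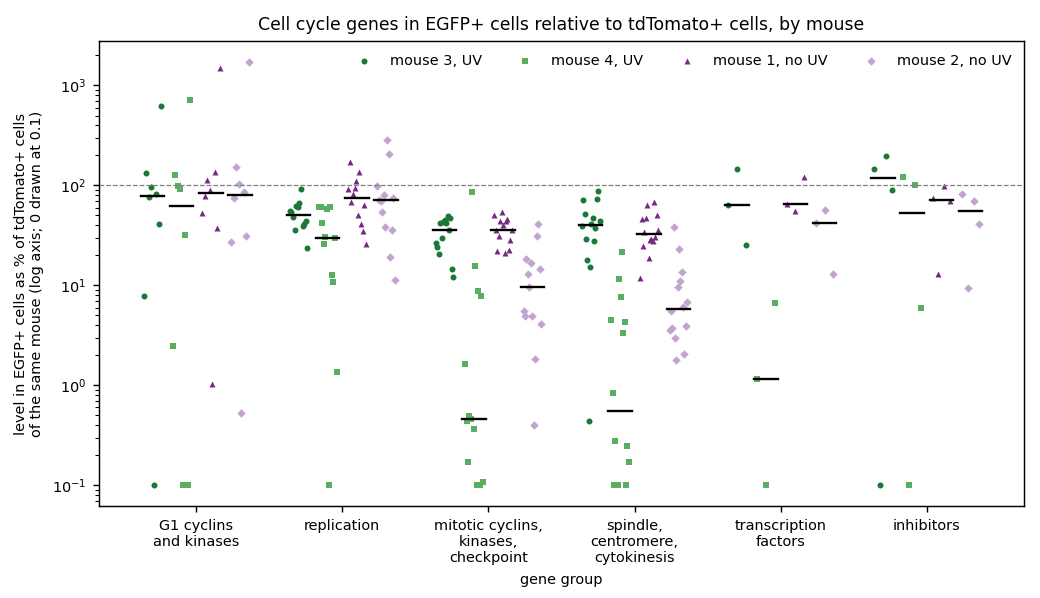
Level in EGFP+ cells as a percentage of the tdTomato+ cells of the same mouse, on a log axis, with a point per gene, a bar at the median and values of 0 drawn at 0.1. The mitosis genes have medians of 39.0% and 35.7% in mice 3 and 1 and of 0.458% and 6.13% in mice 4 and 2, while the G1 genes have medians of 62.0% to 84.3% in all 4 mice.

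The 2 EGFP+ libraries of a group were therefore unlike in the mitosis genes. In UV EGFP+ cells replicate 1 exceeded replicate 2 in 26 of 27 mitosis genes, with a median difference of 5.25 on the log2 scale, and 20 of 27 differed by over 2 against 14.3% of all genes tested. In no UV EGFP+ cells replicate 1 exceeded replicate 2 in 27 of 27, with a median of 2.93, and 18 of 27 differed by over 2 against 3.93% of all genes. In UV tdTomato+ cells the median difference was -0.26, in no UV tdTomato+ cells it was 0.69, and 0 of 27 differed by over 2 in either. Read totals of replicates 1 and 2 were 16162492 and 13288698 in UV EGFP+, 16200359 and 13545505 in no UV EGFP+, 16711981 and 16543913 in UV tdTomato+ and 15692661 and 11186363 in no UV tdTomato+ cells. Detected genes of replicates 1 and 2 were 14503 and 11186 in UV EGFP+ and 14922 and 15867 in no UV EGFP+ cells. The part of read totals and detected genes in these replicate differences was not tested. The summed mitosis genes were 6410 and 1167 normalized reads in UV EGFP+ and 8653 and 1623 in no UV EGFP+ libraries, against 20376 and 23774 in UV tdTomato+ and 25476 and 16360 in no UV tdTomato+ libraries. The summed basal keratinocyte markers in the same EGFP+ libraries were 833 and 1065 with UV and 805 and 1000.2 without UV. Their part in the spread of the mitosis genes was not tested.

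UV exposure was compared with mock treatment within EGFP+ cells, 2 libraries against 2. None of the 54 genes was called by limma, beside 0.0166% of all genes tested (3 genes), and 3 of the 54 had an unadjusted p under 0.05 against 10.4% of all genes. The 3 were Ccnd1, Cdkn2b and Kif2c. Ccnd1 had 137 and 38.8 normalized reads in UV EGFP+ cells, against 734 and 430 in no UV EGFP+ cells, with a log2 fold change of -2.93 ± 0.54 (SE; adjusted p = 0.130). Cdkn2b had 0 reads in UV EGFP+ cells and 72 in no UV EGFP+ cells, at least 22.6-fold lower by a floor of 3 reads over the group (limma adjusted p = 0.101). Kif2c had 1 and 0 reads in UV EGFP+ cells, against 127 and 3 in no UV EGFP+ cells, so nearly all its reads came from mouse 1 (limma adjusted p = 0.424). Its log2 fold change was -3.90, and -1.51 without no UV EGFP+ replicate 1. On the whole reads recovered from the deposited values, edgeR called 2 genes, Ccnd1 (adjusted p = 0.0101) and Cdkn2b (adjusted p = 0.0101), and DESeq2 called Ccnd1 (adjusted p = 5.82e-05), Cdkn2b (adjusted p = 0.00029) and Kif2c (adjusted p = 0.0133).

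The direction of the UV change of the mitosis genes in EGFP+ cells turned when UV EGFP+ replicate 2 was left out. With all libraries the median log2 UV change was -0.58 over the 54 genes, -1.42 over the 27 mitosis genes (4 positive) and 0.15 over the replication genes, against -0.11 over all genes. When it was left out, the medians were 0.47 over the 54 genes, 1.04 over the mitosis genes (24 positive) and 0.39 over the replication genes, and 0 of the 54 genes and 0 of all genes were called. Without UV EGFP+ replicate 1, the UV EGFP+ cells are represented by replicate 2 alone, whose spread is then taken from the other groups. In that fit 14 of the 55 genes were called, all lower, beside 8.91% of all genes (7.75% lower). The no UV EGFP+ libraries also lay apart, with replicate 1 above replicate 2 in 27 of 27 mitosis genes (median log2 difference 2.93). Medians of the UV change without either of them were not taken. Cdkn1a had 5785 and 3072 normalized reads in UV EGFP+ cells, against 4362 and 5822 in no UV EGFP+ cells, overlapping values with a log2 fold change of -0.26 ± 0.34 (adjusted p = 0.856). Pcna had 4836 and 4701 against 5641 and 3476, and E2f2 had 41.1 and 0 against 17.5 and 6.66, in UV and no UV EGFP+ cells.

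In tdTomato+ cells UV also gave no call among the 54 genes, beside 0.559% of all genes (101 genes; 0.349% higher and 0.21% lower), while 12 of the 54 had an unadjusted p under 0.05 against 13.4% of all genes. Of those 12, 7 were replication genes. All 12 replication genes had a positive log2 UV change, between 0.42 and 2.19 with a median of 0.91, against -0.09 over all genes. In 10 of the 12 both UV libraries exceeded both no UV libraries, an order that 21.6% of all genes showed. Mcm4 had 2277 and 2463 normalized reads in UV tdTomato+ cells, against 1362 and 1196 in no UV tdTomato+ cells, with a log2 fold change of 0.89 ± 0.20 (SE; adjusted p = 0.106). Rrm2 had 6433 and 6937 against 2363 and 905, with 2.19 ± 1.23 (adjusted p = 0.508). Of 29 other replication genes 27 had a positive UV change, with a median of 0.62 and 0 calls. Pcna had 6539 and 7730 normalized reads in UV tdTomato+ cells and 6585 and 6357 in no UV tdTomato+ cells.

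The mitosis genes showed no such order in tdTomato+ cells. Their median UV change was 0.12, with 17 of 27 positive. Mki67 had 659 and 1081 normalized reads in UV tdTomato+ cells, against 1216 and 1240 in no UV tdTomato+ cells, and Cenpf had 214 and 257 against 459 and 619, both lower in each UV library. Cenpa had 2395 and 2349 against 2026 and 1583, higher in each UV library, and Cdc20 likewise had 1401 and 1350 against 1149 and 1075. None of these 4 passed. The 4 tested inhibitors were all negative, with a median of -0.53.

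Among the G1 genes in tdTomato+ cells, Cdk2 and Ccnd2 had the smallest p. Cdk2 had 1633 and 1626 normalized reads in UV tdTomato+ cells, against 842 and 602 in no UV tdTomato+ cells, with a log2 fold change of 1.19 ± 0.21 (SE; adjusted p = 0.0575). Pmel, its overlapping neighbour, had 4046 and 9129 in the same UV libraries, against 1104 and 488 in the no UV libraries, and its part in the Cdk2 value was not tested. Ccnd2 had 2081 and 1999 normalized reads in UV tdTomato+ cells, against 3653 and 3632 in no UV tdTomato+ cells, with a log2 fold change of -0.84 ± 0.16 (adjusted p = 0.0745). Replicates of Ccnd2 differed little, and its 2 UV values lay well below the 2 no UV values. With recovered reads edgeR called 1 gene, Cdk2, and DESeq2 called 3, Ccnd2 and Mcm4 besides Cdk2. Without no UV tdTomato+ replicate 1, limma called Cdk2 (adjusted p = 0.016), Ccnd2 (adjusted p = 0.0199) and Mcm4 (adjusted p = 0.019), beside 9.47% of all genes. Cdkn1a had 8005 and 4824 normalized reads in UV tdTomato+ cells, against 6154 and 5094 in no UV tdTomato+ cells, with a log2 fold change of 0.15 ± 0.34 (adjusted p = 0.888).

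Markers of several cell types in the tdTomato+ libraries moved with UV. The 6 suprabasal keratinocyte markers summed to 35622 and 20247 normalized reads in UV tdTomato+ libraries, against 50009 and 65338 in no UV tdTomato+ libraries, and Krt1 and Krt10 were lower (limma adjusted p = 0.0133 and 0.0101). The 8 melanocyte markers summed to 23228 and 44454 with UV, against 5571 and 2616 without UV, and 5 of the 8 were higher. The 7 immune markers summed to 5137 and 1350 with UV, against 10501 and 2218 without UV, and these sums overlap. Of the 7, 3 had a positive log2 UV change, up to 5.33 for Lyz2 of myeloid cells (adjusted p = 0.483), and 4 a negative one. The sole immune marker called was Cd207 of Langerhans cells, at 0 and 0 with UV against 1237 and 271 without, which was lower (adjusted p = 0.0211). The 7 basal keratinocyte markers summed to 219704 and 208822 with UV, against 211945 and 276413 without UV, which overlap. The 6 fibroblast markers summed to 8276 and 11772 with UV, against 17429 and 14716 without UV, and 5 of the 6 had a negative change. The 8 hair follicle markers summed to 4144 and 4905 with UV, against 3458 and 4026 without UV, and 3 of the 8 had a positive change. In both lists the sums did not overlap. The 5 endothelial markers summed to 727 and 89.0 with UV, against 186 and 31.4 without UV, which overlap. No gene of these 3 lists was called. The part of these shifts in the cell cycle values was not tested.

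**Figure D5:**
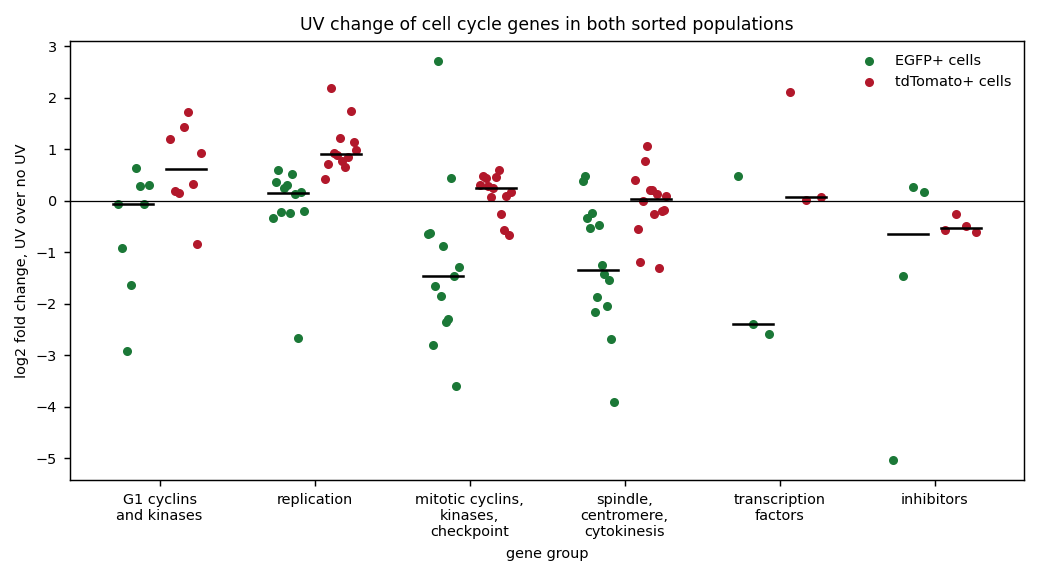
Log2 UV change of each tested gene in EGFP+ cells (green) and tdTomato+ cells (red) by role, with a point per gene and a bar at the median. All 12 replication genes are above 0 in tdTomato+ cells, the mitosis genes have medians near 0 there, and in EGFP+ cells the mitosis genes spread between -3.90 and 2.72, with UV EGFP+ replicate 2 included.

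The difference between the UV changes of EGFP+ and tdTomato+ cells was tested as an interaction. None of the 54 genes passed, beside 0.00553% of all genes tested (1 gene), and 7 of the 54 had an unadjusted p under 0.05 against 10.0% of all genes. The smallest p among the 55 were those of Cdk2 (-1.27 ± 0.29), Ccnd1 (-3.08 ± 0.76) and Cdkn2b (-4.47 ± 1.10), each with adjusted p = 0.265. All 12 replication genes had a negative difference, with a median of -0.94 against -0.12 over all genes, whereas without UV EGFP+ replicate 2 the median was -0.70, against 0.018 over all genes, and 3 of the 12 were positive. With recovered reads edgeR called 0 genes and DESeq2 called 3, Ccnd1 (adjusted p = 0.00902), Cdkn2b (adjusted p = 0.00425) and Cdk2. Without UV EGFP+ replicate 1, 11 genes were called, all lower, beside 5.65% of all genes, without UV EGFP+ replicate 2, 0 were called, and without no UV tdTomato+ replicate 1, Cdk2 was called (adjusted p = 0.0356).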

How the data were processed

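RNA from 8 sorted libraries was sequenced after poly(A) selection with a kit that does not keep the strand. Per the submitters' processing notes, the build was mm10 and the tools were DESeq2 1.14.1, Cufflinks 2.2.1, TopHat2 2.0.12 and FastQC. The counter and annotation were not given in the sources used here. Per gene and library the authors deposited a signal, reads divided by 1 size factor per library (0.701 to 1.20), with their own log2 fold changes, test scores, p-values and adjusted p-values per the file headers. Whole reads were recovered by undoing the size factors, and 195368 of 195368 values (100%) came out within 0.01 of a whole number.

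Here log2(normalized reads + 1) was fitted with limma 3.58.1 (R 4.3.3, trend on) to 4 group means over 8 libraries, for 18070 genes whose mean reached 1 in 1 or more groups. P-values were adjusted by Benjamini-Hochberg over all 18070 genes, with 0.05 as the threshold. The fit has 4 residual degrees of freedom (median 8.40 after moderation). A 2 against 2 exact permutation test cannot go below p = 0.333 and was not used. edgeR 4.0.16 (quasi-likelihood) and DESeq2 1.42.0 on the recovered reads were alternatives, since the deposited values are not counts. Library totals of 11186363 to 16711981 reads set the precision, and intervals and floors cover counting error only.

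The EGFP+ and tdTomato+ libraries of a mouse come from the same animal. Their deviations from the group means correlated at 0.0873 (mice 1 and 2) and 0.0562 (mice 3 and 4). The fit with mouse as a block is given where it changes a call. The genes and lists were chosen with earlier results of these data known. Any of the 55 genes could be named. Of the other pathway genes Cdkn1a, Pcna and E2f2 are always given, and up to 3 called genes a direction with the smallest p. The table holds 27 rows with dates in place of symbols and 3897 genes with 0 reads in all libraries. Gene positions are from the GENCODE annotation of GRCm38.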

Additional observations from a re-analysis of the deposited data

How the results depend on the processing

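With 2 libraries a group, few calls were stable. Of 1707 alternative values for 93 named results, 1283 kept their direction and side of the threshold, 347 kept only their direction and lost the threshold, 54 passed it, and 23 turned sign, none of them called. The number of the 55 genes called ranged, when 1 library was left out, between 8 and 41 over all mice, 5 and 41 with UV, 3 and 14 without UV, 0 and 14 for UV in EGFP+ cells, 0 and 3 for UV in tdTomato+ cells, and 0 and 11 for the difference. Over all genes the ranges were 3463 to 6594, 993 to 4952, 1398 to 4494, 0 to 1604, 0 to 1772 and 0 to 1297. Mouse as a replicate block gave 36, 25 and 10 of the 55 genes over all mice, with UV and without UV, beside 5221, 3190 and 3288 of all genes.

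Without both libraries of mouse 1 the number of the 55 genes called was 11 over all mice, 7 with UV, 1 for UV in EGFP+ cells, 4 for UV in tdTomato+ cells and 1 for the difference. Over all genes it was 1119 with UV, 818 and 2006 for UV in EGFP+ and tdTomato+ cells, and 2064 for the difference. Without both libraries of mouse 4, an alternative chosen after seeing the data, these were 7 over all mice (2755 of all genes), 0 with UV (0 of all genes) and 4 without UV, and 0 of all genes for both UV changes and their difference. With only the compared libraries fitted, 7 of the 55 (1074 of all genes) were called with UV, 4 without UV, and 0 of all genes for UV in either cell population. DESeq2 called 12 of the 55 without UV (4068 of all genes), and 3 for UV in EGFP+ cells (355 of all genes), 3 for UV in tdTomato+ cells (617) and 3 for the difference (286). edgeR called 2 of the 55 for UV in EGFP+ cells (120 of all genes), 1 for UV in tdTomato+ cells (240), and 75 of all genes for the difference. For UV in EGFP+ cells quantile normalization called 0 of all genes and a pseudocount of 0.1 called 1, and for tdTomato+ cells that pseudocount called 29. For the difference, quantile normalization called 4, rescaling without the 20 most abundant genes 2, and the pseudocount of 0.1 or no filter 0.

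Quantile normalization shifted the median of all genes by 0.352 and rescaling by 0.208 (log2, over all mice), and the 27 mitosis genes stayed negative under both. Calls over all genes split into 2618 higher and 2671 lower with quantile normalization and 2655 and 2895 with rescaling, against 1746 and 3471 over all mice. With UV the splits were 1251 and 1639, and 1285 and 2011, against 909 and 2331. Without UV they were 1809 and 1785, and 1804 and 1806, against 1206 and 2262. Rescaled, Ccnd2 was called higher with UV (0.60, limma adjusted p = 0.0375). Over all mice the signs that turned were those of Ccnd2 (0.0468 with edgeR, 0.19 with quantile normalization, 0.26 rescaled, 0.0166 without mouse 4, and -0.0408 to 0.031 with 1 library left out), Cdk4 (0.24 with quantile normalization, 0.19 rescaled, -0.18 to 0.0452), Ccnd3 (-0.127 to 0.33), Cdt1 (-0.0124 to 0.33), Cdkn1b (-0.0886 to 0.14) and Cdkn2c (-0.025 to 0.24, and -0.017 without mouse 1). For UV, Cdkn1a lay between -0.71 and 0.199 in EGFP+ cells (0.199 also without mouse 4) and between -0.215 and 0.52 in tdTomato+ cells. The cause was not tested. Depth limits the genes with few reads, Cdk6, Kif2c and Cdkn2b in EGFP+ cells.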
